A study of Mus musculus with 6 samples.

Results

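Cellular iron handling was followed through 10 genes chosen by their GENCODE symbols: the iron carrier Trf, the uptake genes Tfrc, Slc11a2 and Slc39a14, the ferritin chains Fth1 and Ftl1, the export genes Slc40a1, Cp and Heph, and the regulator Ireb2. The count files hold 56691 genes, of which 15662 had enough counts to be tested, and all 10 iron genes were among them. The data are total RNA-seq of whole kidney from male C57BL/6 mice, 9 weeks old at the start, in 2 groups of 3 mice with 1 library per mouse. Cisplatin mice, a model of chronic kidney disease, received 4 intraperitoneal injections of cisplatin at 8 mg/kg over the first weeks, and control mice received saline. Kidneys of both groups were taken at week 7. No library pools several mice, and each library averages over all cell types of the kidney, so fewer cells of a type and less RNA per cell cannot be told apart.

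Iron travels in plasma bound to transferrin, enters cells through the transferrin receptor, leaves the endosome through a divalent metal transporter, is stored in ferritin and leaves the cell through ferroportin, with a copper-containing ferroxidase oxidizing it on the way out. In the kidney, transferrin and other iron-carrying proteins are filtered and taken back by the tubule, and heme and iron are known to load the tubule when red cells break down. Iron regulatory proteins bind hairpins called iron-responsive elements (IREs) when iron is scarce: an IRE before the coding sequence then holds back translation, and IREs after it protect the mRNA from decay.

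In the cisplatin kidneys the carrier and export genes had higher mRNA levels than in control kidneys, under each scaling tried, and the uptake and storage genes had lower ones under trimmed mean of M-values (TMM) scaling. Of the 10 genes, 4 rose (Trf, Slc40a1, Cp and Heph) and 6 fell (Tfrc, Slc11a2, Slc39a14, Fth1, Ftl1 and Ireb2) under TMM, while scaling by library totals left Tfrc as the 1 call among the falls and put Ftl1 and Ireb2 just above 0. The test was edgeR's quasi-likelihood F test with a Benjamini-Hochberg adjusted p under 0.05. The same test called 47.4% of all tested genes (24.5% higher and 22.8% lower, against 30.5% and 18.5% with upper-quartile factors and 54.3% and 8.78% with library totals), and 54.7% of the 6113 genes that were at least as abundant as the lowest of the 10. The libraries of the 2 groups did not overlap for any of the 10 genes, which held for 57.8% of all tested genes. Large parts of this transcriptome changed, so a call by itself does not set these genes apart. The median log2 fold change was -0.42 over the 10 genes and 0.05 over all tested genes.

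The sizes were unequal. Cp rose by a log2 fold change of 2.74, a change that 171 of the 15662 tested genes exceeded upward, and Tfrc fell by 1.68 on the log2 scale, a fall that 340 genes exceeded. Trf stood at 1.42. The other 7 genes lay between -0.60 and 0.67. Scaling by library totals moved the median of all tested genes to 0.48. A change of scale factors shifts every gene by nearly the same amount, so distances to the median were bound to stay nearly the same. Ftl1 lay 0.46 below the median under TMM and 0.47 below it under library totals, and Ireb2 0.47 below it under both. Such distances are no check of the calls. In a test against a fold change of 1.5, which called 8.91% of tested genes higher and 7.11% lower, Cp, Trf and Tfrc kept their calls and the other 7 did not.

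**Figure D1:**
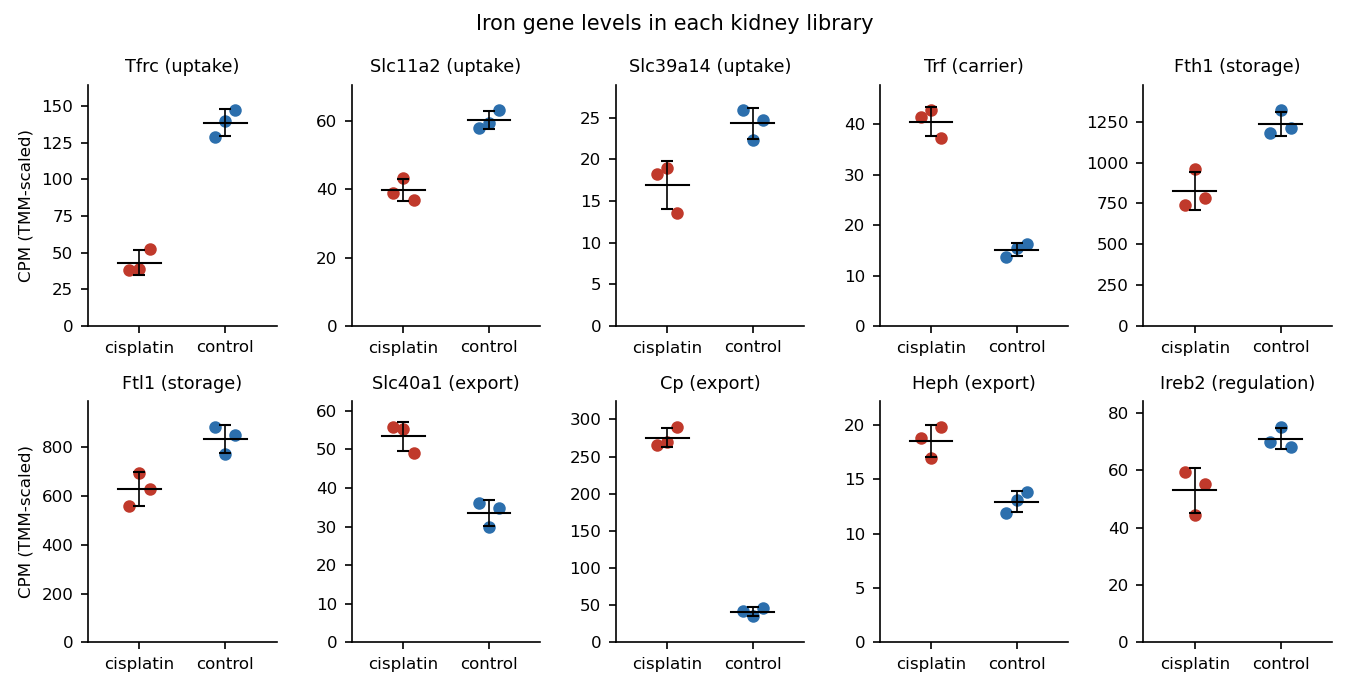
Levels of the 10 iron genes in CPM (counts scaled to library size, TMM-scaled, linear axes from 0), one point per library, with the mean and SD of the 3 cisplatin (left) and 3 control (right) libraries. No gene has overlapping groups at this scaling. With library totals Ftl1 and Ireb2 change sign.

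**Figure D2:**
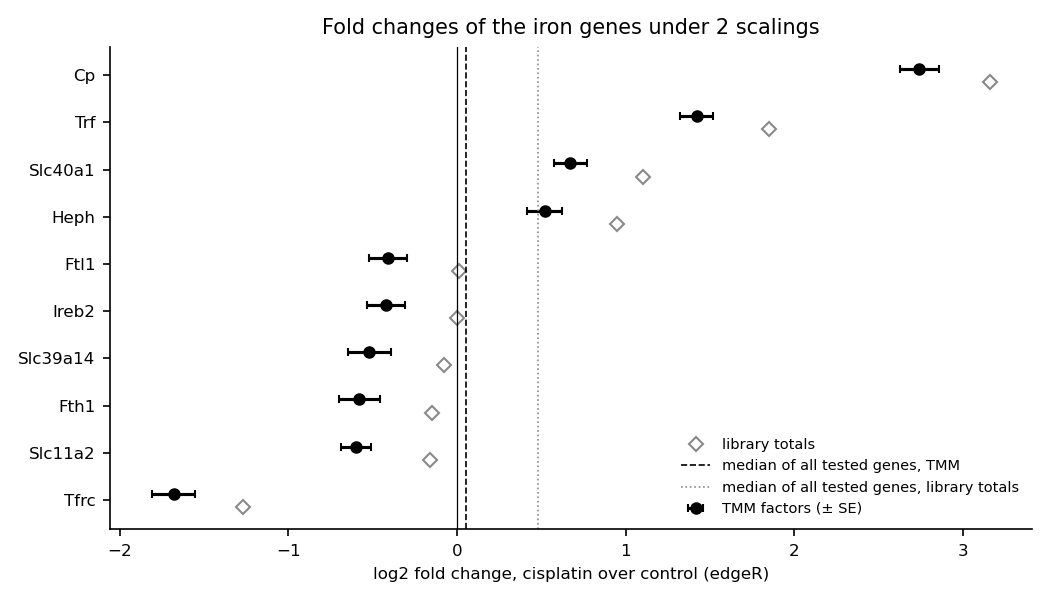
Log2 fold change of each iron gene, cisplatin over control, with TMM factors (filled circles, bars show the SE) and with library totals (open diamonds), and the median of all tested genes under each scaling (dashed and dotted lines). Cp, Trf, Slc40a1 and Heph lie above 0 under both scalings and Tfrc below 0 under both, while Ftl1 lies at -0.41 with TMM and at 0.012 with library totals, and Ireb2 at -0.42 and 0.00485.

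The IREs link several of these mRNAs, so their sequences are given here. A search of the untranslated regions (UTRs) for the classic hairpin found 7 sites in 4 of the 10 genes. The search asked for a bulged C, 5 bases, the loop CAGTGN and 5 bases pairing with the first arm, with G-T pairs allowed. Each line holds the 29 DNA bases around a site, 5' to 3' on the strand of the gene, with the 6 loop bases in capitals. Positions are in GRCm39, the build of the count files.
Fth1 5' UTR, chr19:9960096-9960124, plus strand, exon 1: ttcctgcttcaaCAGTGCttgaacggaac
Ftl1 5' UTR, chr7:45109203-45109231, minus strand, exon 1: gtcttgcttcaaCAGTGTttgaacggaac
Slc40a1 5' UTR, chr1:45964625-45964653, minus strand, exon 1: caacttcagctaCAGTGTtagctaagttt
Tfrc 3' UTR, chr16:32450037-32450065, plus strand, exon 19: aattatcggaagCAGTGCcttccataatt
Tfrc 3' UTR, chr16:32450416-32450444, plus strand, exon 19: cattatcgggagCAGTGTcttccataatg
Tfrc 3' UTR, chr16:32450481-32450509, plus strand, exon 19: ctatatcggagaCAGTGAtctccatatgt
Tfrc 3' UTR, chr16:32450528-32450556, plus strand, exon 19: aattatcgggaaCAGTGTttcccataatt

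The windows of the 2 ferritin chains share 26 of 29 bases, arms and flanks included. Among 21593 protein-coding genes, a match was found in the 5' UTR of 0.111% and in the 3' UTR of 0.574%. The other 6 iron genes had no match, which says only that a hairpin with fully paired arms is not in their annotated UTRs. The 3 genes with a site before the coding sequence did not move together: Slc40a1 rose under every scaling tried, while Fth1 and Ftl1 fell under each of them except library totals, where neither was called and Ftl1 stood just above 0. Outside these genes, 17 tested genes with a 5' UTR match had a median log2 fold change of -0.23, with 1 higher and 7 lower. The 103 with a 3' UTR match had a median of -0.05, with 24 higher and 31 lower. Over all tested genes 24.5% were higher and 22.8% lower. Among the 17 genes with a 5' UTR match, Alas2, the erythroid enzyme of heme synthesis, had a log2 fold change of -0.07 (edgeR adjusted p = 0.835). An IRE before the coding sequence acts on translation, so mRNA levels do not show whether such sites were at work.

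Transferrin receptor mRNA had the largest fall of the 10. Tfrc (chr16:32427556-32451612, plus strand), which carries iron-loaded transferrin into the cell and holds the 4 sites listed above, had 38.3, 38.7 and 52.7 CPM in the cisplatin libraries, against 129, 140 and 147 CPM in the control libraries. The highest cisplatin library stood well under the lowest control library. The mean was 43.2 ± 8.19 CPM in cisplatin and 138 ± 9.47 CPM in control kidneys (SD, n = 3 each), a log2 fold change of -1.68 ± 0.129 (SE; edgeR adjusted p = 3.2e-06). Behind these values lie 1111 to 1207 counts per cisplatin library and 2865 to 3065 per control library.

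Both transporters among the uptake genes fell less than the receptor. Slc11a2 (chr15:100285776-100322953, minus strand), the divalent metal transporter DMT1 of endosomes and of the apical tubule membrane, had 39.1, 43.4 and 37.0 CPM in cisplatin libraries, against 58.1, 59.6 and 63.2 CPM in control libraries. The cisplatin libraries lay together below the control ones. Its log2 fold change was -0.60 ± 0.0886 (SE; edgeR adjusted p = 3.0e-04). Slc39a14 (chr14:70540678-70588914, minus strand), the transporter ZIP14 that takes up iron not bound to transferrin, had 18.2, 19.0 and 13.6 CPM in cisplatin libraries, against 25.9, 22.3 and 24.8 CPM in control libraries. Cisplatin replicate 3 was the lowest library, and the 2 groups came closest at 19.0 and 22.3 CPM. Its log2 fold change was -0.52 ± 0.128 (SE; edgeR adjusted p = 0.00688). With library totals both kept their sign without passing the test, at -0.16 for Slc11a2 (adjusted p = 0.225) and -0.0811 for Slc39a14 (adjusted p = 0.703).

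Markers of the proximal tubule, the main segment for protein and iron reabsorption, were lower as well. Of 10 such markers, 9 were lower and none higher (7 and 1 with library totals), and their summed level was 2400 to 2590 CPM in cisplatin libraries, against 26300 to 26600 CPM in control libraries. Kap, a single androgen-responsive transcript, made up most of the control sum, at 280 ± 125 CPM in cisplatin and 21200 ± 440 CPM in control kidneys (SD, n = 3 each). Markers of erythroid cells, which are rich in Tfrc, summed to 142 to 234 CPM in cisplatin and 124 to 250 CPM in control libraries, with overlapping ranges for all 5. Of these, edgeR called 0 (1 at an unadjusted p under 0.05), and DESeq2 and limma-voom called 0. The part of the tubule markers in the fall of the uptake genes was not tested.

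The carrier gene moved the other way. Trf (chr9:103081200-103107814, minus strand), which encodes transferrin, the plasma iron carrier made mostly in liver, had 41.5, 42.8 and 37.3 CPM in the cisplatin libraries, against 13.7, 15.5 and 16.3 CPM in the control libraries. Every cisplatin library stood above the highest control library, with a narrow spread in both groups. The mean was 40.5 ± 2.84 CPM in cisplatin and 15.2 ± 1.36 CPM in control kidneys (SD, n = 3 each), a log2 fold change of 1.42 ± 0.0999 (SE; edgeR adjusted p = 1.8e-06). Of 5 genes listed as liver markers, 4 could be tested and 3 of them were lower. Whether the RNA of these genes or of Trf came from liver cells was not tested. The summed level of the 5 markers was 30.1 to 48.6 CPM in cisplatin and 243 to 287 CPM in control libraries. Ttr made up most of it, at 22.3 ± 2.58 CPM in cisplatin and 255 ± 23.5 CPM in control kidneys (SD, n = 3 each), while Serpina1a overlapped between the groups, and Cyp7a1, the hepatocyte enzyme of bile acid synthesis, had a count of 0 in all 6 libraries.

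The ferritin chains were the most abundant of the 10 mRNAs, and both fell under TMM but not under library totals, where Ftl1 stood just above 0. Fth1 (chr19:9957911-9962462, plus strand), the heavy chain that oxidizes iron as it enters the ferritin shell, had 743, 959 and 781 CPM in the cisplatin libraries, against 1180, 1320 and 1210 CPM in the control libraries. The groups were separated, with cisplatin replicate 2 nearest to the controls. The mean was 828 ± 115 CPM in cisplatin and 1240 ± 75.2 CPM in control kidneys (SD, n = 3 each), a log2 fold change of -0.58 ± 0.122 (SE; edgeR adjusted p = 0.00279). Under library totals it was -0.15 (edgeR adjusted p = 0.282).

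Ftl1 (chr7:45107367-45109308, minus strand), the light chain that helps mineralize stored iron, had 558, 696 and 631 CPM in the cisplatin libraries, against 884, 772 and 850 CPM in the control libraries. The gap between the groups was the space between 696 and 772 CPM. Its log2 fold change was -0.41 ± 0.113 (SE; edgeR adjusted p = 0.0124) under TMM and 0.012 under library totals (edgeR adjusted p = 0.925). The call also depended on single control libraries, since the adjusted p was 0.0595 without control replicate 1 and 0.0531 without control replicate 3. An annotated gene on the other strand overlaps Ftl1, so counts that ignore the strand kept only 16.1% to 17.0% of its counts. They gave a log2 fold change of -0.40. Both ferritin genes have processed copies in the genome, and the 15 other ferritin records counted here had at most 38 counts in any library, with 9 of them at 0 throughout. Read pairs that map to several places are not counted for either gene.

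The balance of the 2 chains did not differ by more than the libraries of a group. The log2 ratio of Fth1 to Ftl1, each in CPM per kilobase of exon, was -0.98, -0.93 and -1.09 in the cisplatin libraries, against -0.98, -0.62 and -0.88 in the control libraries. The ranges overlapped, and control replicate 2 had the highest ratio. The difference was -0.17, with p = 0.3 in a two-sided exact permutation test, in which 3 against 3 libraries cannot go below 0.1.

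The export route was higher at all 3 of its genes. Cp had the largest rise of the 10. Cp (chr3:20011090-20063930, plus strand), ceruloplasmin, a copper-containing ferroxidase known as a plasma protein, had 266, 270 and 290 CPM in the cisplatin libraries, against 42.8, 34.9 and 46.1 CPM in the control libraries. The 2 groups stood far apart and each was tight. The mean was 275 ± 12.8 CPM in cisplatin and 41.3 ± 5.75 CPM in control kidneys (SD, n = 3 each), 6.67 times as high, with a log2 fold change of 2.74 ± 0.117 (SE; edgeR adjusted p = 6.3e-08). The opposite strand of the locus held 69 to 83 counts in cisplatin libraries and 59 to 80 in control libraries, against 6645 to 8058 and 717 to 1018 on the strand of Cp.

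Slc40a1 (chr1:45947211-45965683, minus strand), which encodes ferroportin, the one iron exporter known in mammals, had 55.8, 55.2 and 49.0 CPM in the cisplatin libraries, against 36.2, 29.8 and 34.7 CPM in the control libraries. All cisplatin libraries were above all control libraries. The log2 fold change was 0.67 ± 0.0983 (SE; edgeR adjusted p = 2.7e-04). Heph (chrX:95498965-95621010, plus strand), hephaestin, a membrane-bound ferroxidase related to ceruloplasmin, had 18.8, 16.9 and 19.8 CPM in the cisplatin libraries, against 11.9, 13.1 and 13.8 CPM in the control libraries. The cisplatin libraries were again the higher ones, by a smaller step. The log2 fold change was 0.52 ± 0.104 (SE; edgeR adjusted p = 0.00202).

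Macrophages, which recycle iron and are known to express ferroportin, left more marker RNA in the cisplatin kidneys. Of 10 macrophage markers, 9 rose and none fell, with a summed level of 280 to 332 CPM in cisplatin and 90.3 to 112 CPM in control libraries. All 5 fibroblast markers rose too, with sums of 294 to 451 CPM in cisplatin and 134 to 167 CPM in control libraries. Among 5 collecting duct markers, 4 rose and none fell (DESeq2 called 3 higher), with sums of 232 to 296 CPM in cisplatin and 163 to 172 CPM in control libraries. The share of all tested genes called higher was 24.5% under TMM and 54.3% with library totals. With library totals 10 macrophage, 5 fibroblast and 4 collecting duct markers were called higher. The part of these cells in the rise of Cp, Slc40a1, Heph and Trf was not tested.

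Ireb2 (chr9:54770970-54820011, plus strand) encodes iron regulatory protein 2, which binds IREs and is itself destroyed when iron is plentiful. It had 59.3, 44.3 and 55.4 CPM in the cisplatin libraries, against 69.9, 75.2 and 68.1 CPM in the control libraries. Cisplatin replicate 2 was the lowest, and the groups did not overlap. The log2 fold change was -0.42 ± 0.111 (SE; edgeR adjusted p = 0.00928) under TMM and 0.00485 under library totals (edgeR adjusted p = 0.976). Aco1, the other IRE-binding protein, which serves as cytosolic aconitase when it carries an iron-sulfur cluster, averaged 146 ± 2.75 CPM in cisplatin and 253 ± 10.6 CPM in control kidneys (SD, n = 3 each), with a log2 fold change of -0.80 ± 0.0851 (SE; edgeR adjusted p = 3.1e-05).

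Levels of different genes can be set side by side only per length, here in CPM per kilobase over the union of a gene's exons. In the cisplatin kidneys Ftl1 (468 ± 51.6) and Fth1 (235 ± 32.8) led, then Cp (24.6 ± 1.15), Trf (7.12 ± 0.499), Tfrc (6.11 ± 1.16), Slc40a1 (5.66 ± 0.399), Ireb2 (4.70 ± 0.690), Slc11a2 (3.60 ± 0.295), Heph (1.48 ± 0.117) and Slc39a14 (1.40 ± 0.240). In the control kidneys the order was Ftl1 (623 ± 42.7), Fth1 (351 ± 21.4), Tfrc (19.6 ± 1.34), Ireb2 (6.31 ± 0.327), Slc11a2 (5.44 ± 0.239), Cp (3.68 ± 0.513), Slc40a1 (3.56 ± 0.355), Trf (2.66 ± 0.239), Slc39a14 (2.01 ± 0.154) and Heph (1.03 ± 0.0749), all as mean and SD of 3 libraries. Thus the gene next after the ferritin chains was Cp in cisplatin kidneys and Tfrc in control kidneys. Neighbors whose library ranges overlapped were Trf and Tfrc, Tfrc and Slc40a1, Slc40a1 and Ireb2, and Heph and Slc39a14 in cisplatin kidneys, and Cp and Slc40a1 in control kidneys. The order depends on the length used. With canonical transcripts, Tfrc moved to rank 8 and Slc11a2 to rank 6 in cisplatin kidneys, Slc11a2 passed Ireb2 in control kidneys, and the ferritin chains changed places: over the canonical transcript Fth1 had 891 ± 124 CPM per kilobase in cisplatin and 1330 ± 80.9 in control kidneys, above Ftl1 with 648 ± 71.4 in cisplatin and 862 ± 59.2 in control kidneys.

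**Figure D3:**
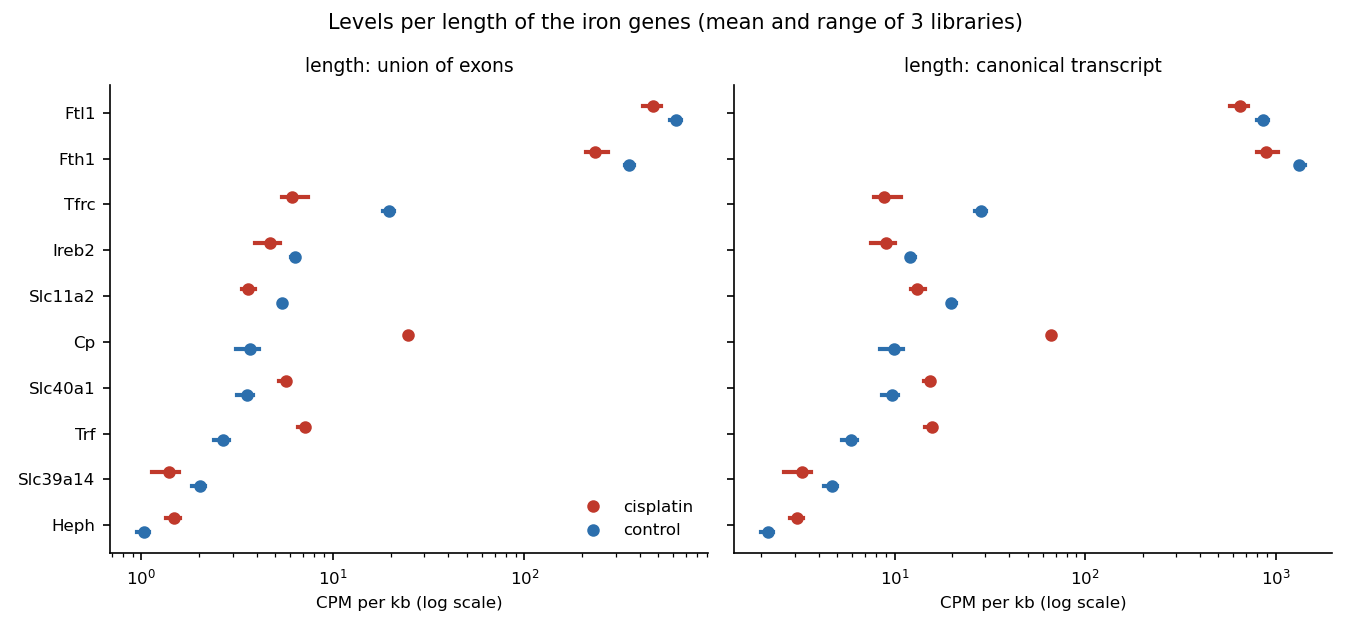
CPM per kilobase (log axis) of each iron gene with the union of exons (left) and the canonical transcript (right) as length, for cisplatin (upper mark of each gene) and control (lower mark). Points are means and bars span the lowest to the highest of 3 libraries. Ftl1 leads with the union of exons and Fth1 with the canonical transcript, and all other genes lie far below both.

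The wider iron and heme genes came from a list of 69 in 8 groups, of which 59 could be tested. Of these, 13 were higher and 24 lower, with a median log2 fold change of -0.23. Scaling by library totals turned the counts to 25 higher and 14 lower. Over all tested genes 24.5% were higher and 22.8% lower under TMM, and 54.3% and 8.78% under library totals. The counts of each group below stand against these shares. Around the transferrin cycle, 4 of 6 tested genes rose. Steap2, a metalloreductase that turns ferric into ferrous iron, averaged 135 ± 12.2 CPM in cisplatin and 85.3 ± 3.99 CPM in control kidneys (log2 fold change 0.66, edgeR adjusted p = 2.2e-04). Steap4, of the same family, averaged 6.29 ± 0.910 CPM in cisplatin and 1.99 ± 0.373 CPM in control kidneys (1.66, edgeR adjusted p = 3.9e-05). Meltf, melanotransferrin, rose at a very low level, with 54 counts in all over the cisplatin libraries and 3 over the control libraries, a ratio of 14.3 (95% exact interval of 4.65 to 71.6, counting error only). Snx3, which returns the transferrin receptor to the cell surface, fell by 0.52 on the log2 scale (edgeR adjusted p = 9.0e-04), but was not called under library totals (-0.10, edgeR adjusted p = 0.313).

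Genes of other import and storage routes, receptors among them, were mostly lower, with 5 of 8 lower under TMM and under library totals alike. Timd2, a mouse receptor for heavy chain ferritin, averaged 15.2 ± 2.65 CPM in cisplatin and 48.3 ± 1.90 CPM in control kidneys (SD, n = 3 each), a log2 fold change of -1.67 (edgeR adjusted p = 1.9e-06). Dab2, an adaptor of the megalin-cubilin complex through which the tubule takes up filtered transferrin, fell by 0.83 on the log2 scale (edgeR adjusted p = 3.9e-05). Lrp2, the receptor megalin itself, averaged 1530 ± 168 CPM in cisplatin and 4080 ± 297 CPM in control kidneys (SD, n = 3 each; edgeR adjusted p = 9.7e-06). Lcn2, the siderophore-binding protein NGAL that is known as a marker of tubular injury, was the 1 gene of this group that rose, to 39.5, 59.3 and 47.6 CPM in the cisplatin libraries, against 0.420, 1.22 and 0.914 CPM in the control libraries. Its log2 fold change was 5.86 ± 0.256 (SE; edgeR adjusted p = 6.8e-08).

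Iron regulatory and ferritin-handling genes formed a group of 7 tested genes, of which 3 were lower and none higher under TMM (0 higher also at an unadjusted p under 0.05 and by DESeq2), against 2 higher and 2 lower under library totals. Besides Aco1, those that fell under TMM were Bdh2, an enzyme linked to siderophore synthesis in mammals, by 0.85 on the log2 scale (edgeR adjusted p = 4.3e-04), and Fbxl5, the iron-sensing ligase that destroys iron regulatory protein 2, by 0.26 (edgeR adjusted p = 0.0296), the last with 0.16 under library totals and no call in 4 of the 6 fits that leave out 1 library (adjusted p of 0.0847 to 0.109). Ncoa4, the receptor that delivers ferritin to lysosomes, had 46.4, 52.6 and 54.7 CPM in cisplatin and 49.2, 47.4 and 47.4 CPM in control libraries, with overlapping ranges and a log2 fold change of 0.09 ± 0.0873 (SE; edgeR adjusted p = 0.401). Hamp, which encodes hepcidin, the hormone that removes ferroportin from the cell surface, had a count of 0 in all 6 libraries, which allows up to 0.101 to 0.131 CPM per cisplatin library and 0.126 to 0.146 CPM per control library. Of the 5 tested genes of the hepcidin axis, 4 rose under TMM and 5 under library totals. They include Hfe, which binds the transferrin receptor (log2 fold change 0.79, edgeR adjusted p = 1.2e-04), Bmp6, the ligand that drives hepcidin in liver (0.62, edgeR adjusted p = 1.8e-04), and Id1, a target of that signal (1.04, edgeR adjusted p = 1.3e-04).

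In the handling of heme and hemoglobin, 4 of 11 tested genes rose and 2 fell (8 and 1 with library totals). Flvcr1, a heme exporter, rose to 19.5 ± 1.27 CPM in cisplatin, against 8.78 ± 0.506 CPM in control kidneys (SD, n = 3 each; edgeR adjusted p = 8.6e-06). Cd163, the macrophage receptor for haptoglobin-bound hemoglobin, averaged 1.67 ± 0.772 CPM in cisplatin and 0.365 ± 0.340 CPM in control kidneys (log2 fold change 2.15, edgeR adjusted p = 0.00645). Control replicate 1 held 18 of the 25 control counts of Cd163, and without it the log2 fold change was 3.28. Hp, haptoglobin itself, averaged 2.35 ± 0.494 CPM in cisplatin and 0.819 ± 0.266 CPM in control kidneys (edgeR adjusted p = 0.00104). Slc46a1, a folate and heme transporter, fell by 1.07 on the log2 scale (edgeR adjusted p = 2.6e-05), and Hmox2, the constitutive heme oxygenase, by 0.23 (edgeR adjusted p = 0.0479). The call of Hmox2 was marginal: it was lost with DESeq2 (adjusted p = 0.0595), with upper-quartile factors, with either other low-count filter and in 5 of the 6 fits that leave out 1 library, and the value was 0.19 under library totals. Hmox1, the inducible heme oxygenase that frees iron from heme, had 9.33, 11.3 and 8.11 CPM in cisplatin libraries, against 12.1, 11.7 and 11.3 CPM in control libraries. It was not called, with a log2 fold change of -0.28 ± 0.129 (SE; edgeR adjusted p = 0.0930), with -0.42 without cisplatin replicate 2 (edgeR adjusted p = 0.0253) and 0.15 under library totals (edgeR adjusted p = 0.452).

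The genes that use iron inside mitochondria were lower or not called under TMM. Of 8 enzymes of heme synthesis, 5 fell, led by Uros at -1.65 (edgeR adjusted p = 4.0e-06), Cpox at -1.48 (edgeR adjusted p = 1.6e-06) and Fech, which inserts the iron, at -0.51 (edgeR adjusted p = 3.7e-04). Of 14 genes of mitochondrial iron and iron-sulfur clusters, 8 fell, among them Nfs1, the sulfur donor of cluster assembly, at -1.04 (edgeR adjusted p = 2.4e-05), Bola3 at -0.82 (edgeR adjusted p = 1.8e-04) and Iba57 at -0.77 (edgeR adjusted p = 2.7e-04), both late-acting assembly factors. No gene of either group was called higher by edgeR under TMM, at an unadjusted p under 0.05 or by DESeq2. With library totals the calls became 2 higher and 2 lower in heme synthesis and 3 higher and 4 lower in the mitochondrial group, with Fech at -0.0796 (edgeR adjusted p = 0.465) and Iba57 at -0.34 (edgeR adjusted p = 0.0595).

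**Figure D4:**
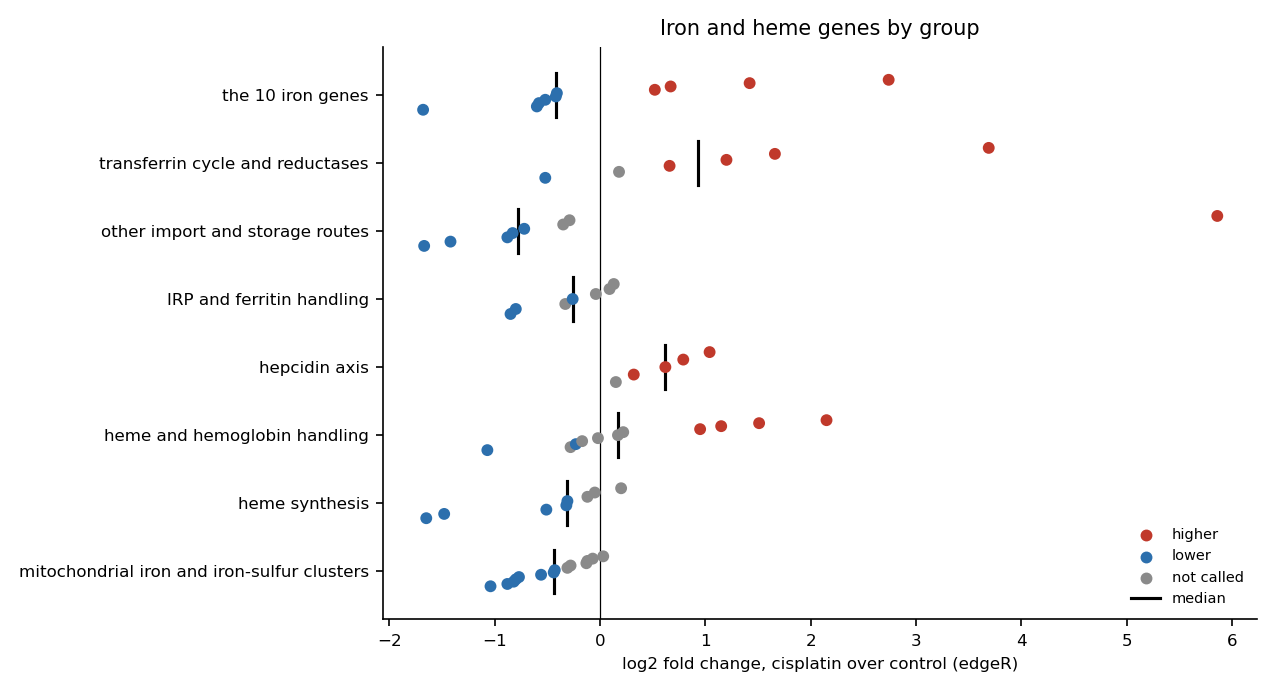
Log2 fold change, cisplatin over control, of the 10 iron genes (top row) and of the 59 tested genes of the wider list by group, one point per gene, red for higher, blue for lower and gray for not called at an edgeR adjusted p under 0.05, with the median as a bar. Under TMM the points of heme synthesis and of mitochondrial iron hold no gene called higher. Among the named genes, library totals turn Ftl1, Ireb2, Fbxl5, Hmox2 and the uncalled Hmox1 above 0.

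Over the 6 libraries, the pattern nearest to Cp among the other 15661 tested genes was that of Krt19, an epithelial keratin, by Euclidean distance of log2 CPM centered per gene (0.254). Serpina3i, a serine protease inhibitor with a count of 0 in the control libraries and 0.436 to 0.482 CPM in the cisplatin libraries, followed at 0.345, a distance set by the prior count where a gene is at 0, and Golm1, a Golgi membrane protein, at 0.361. Krt19 had 15.3, 16.9 and 14.4 CPM in the cisplatin libraries, against 2.40, 1.85 and 2.69 CPM in the control libraries. Nearest to Tfrc were Gm11992 (0.106), an Ensembl gene with no name in the annotation (0.134) and D630024D03Rik (0.140). Gm11992 had 9.50, 9.99 and 12.9 CPM in the cisplatin libraries, against 31.1, 34.5 and 34.6 CPM in the control libraries. These distances describe 6 libraries that fall into 2 separate groups.

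The promoter windows of the 10 genes, 250 bases before to 50 after the start of the canonical transcript, were read for 2 short motifs on both strands. TGACNNNGC, the core of the antioxidant response element, was in 0 of 10 windows, against 12.5% of 21770 promoters. ACGTG, a form of the core bound by hypoxia-inducible factors, was in 2 of 10, Tfrc and Slc39a14, against 20.7% of all promoters. In Slc39a14 the 2 matches overlap, 1 on each strand. With 10 windows, neither motif count sets these genes apart from all promoters. Sites outside the windows were not searched.

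Library depth was even. The counted pairs numbered 21891855 to 25356523 in cisplatin and 24111688 to 26627554 in control libraries, the share of mitochondrial ribosomal RNA was 41.1% to 48.6% in cisplatin and 45.5% to 48.0% in control libraries, and TMM factors were 1.05 to 1.26 in cisplatin and 0.844 to 0.894 in control libraries. No pair of libraries matched within sampling noise: the mean chi-square for a gene was 11.9 to 36.1 within the cisplatin group and 4.54 to 6.54 within the control group, where 1 is counting noise. Markers of proximal tubule, thick ascending limb and distal tubule, collecting duct, endothelium and fibroblasts were all detected. Of 3 neutrophil markers, 2 could be tested, and edgeR called both higher and DESeq2 1 of them. The sums of the neutrophil markers were 2.96 to 3.58 CPM in cisplatin and 1.68 to 1.75 CPM in control libraries, and Ly6g was at 0. Of the 5 endothelial markers 2 were lower and none higher (166 to 209 CPM in cisplatin and 240 to 250 CPM in control libraries), and of 5 markers of thick ascending limb and distal tubule 3 were lower and 1 higher (2770 to 3130 CPM in cisplatin and 3370 to 3630 CPM in control libraries). With library totals these became 0 lower and 1 higher for the endothelium, and 1 lower and 1 higher for thick ascending limb and distal tubule.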

How the data were processed

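Total RNA of 3 cisplatin and 3 control kidneys was sequenced as stranded read pairs, 1 library per mouse. Per the labels, the authors trimmed pairs with Cutadapt, aligned them to mm39 (GRCm39) with STAR and deposited raw counts per gene from STAR. The release of the annotation was not given in the sources used here. Of the deposited columns, that of the transcript strand was used, which held 96.7% to 97.2% of stranded counts. Rows that name no gene stayed out. They held unmapped pairs (2.72% to 3.57% of pairs) and pairs that map to several places (11.5% to 12.9%). Pairs in no gene made up 6.09% to 9.32% in cisplatin and 4.63% to 4.86% in control libraries. Ambiguous pairs made up 1.91% to 2.01% in cisplatin and 1.20% to 1.265% in control libraries. Of 56691 gene IDs, 56017 have a record in GENCODE vM39, which gave names, positions, lengths and UTRs. UTR sites were read from its transcripts and checked against the GRCm39 genome.

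Counts were tested with edgeR 4.0.16 in R 4.3.3 (quasi-likelihood F test with TMM factors; filterByExpr at a minimum count of 10 and a total of 15; Benjamini-Hochberg adjustment over 15662 genes at 0.05). SEs were derived from the fold change and its F statistic. CPM are counts over the TMM-adjusted library size, with a prior count of 2 for log2 CPM. The fit was tried on simulated data in which both groups shared the same profile, apart from genes changed by a set fold. It recovered 2 of 50 genes changed 1.25-fold, 25 of 50 at 1.5-fold, 40 of 50 at 2-fold and 48 of 50 at 4-fold, with 15 false calls. The choice of scaling was not tested in this way. Alternatives were DESeq2 1.42.0, limma-voom (limma 3.58.1), other scalings and filters, unstranded counts, omission of mitochondrial genes with the 20 highest, a replicate block, omission of each library, a threshold of 0.01 and a 1.5-fold test. Canonical transcript length was added after seeing the data. Python 3.11.15 with scipy 1.17.1 was used for the other steps. All 10 iron genes are named. Of the wider list, up to 3 genes per group and direction with the smallest adjusted p are named, with Hamp, Hmox1, Aco1, Ncoa4 and Lcn2 whatever their result. Alas2 and Kap were named after their values were seen. The markers Ttr, Serpina1a, Cyp7a1 and Ly6g were also named outside this rule. The iron genes, the wider list and the markers were chosen with earlier results of these data known. Counting intervals and limits cover counting error only.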

Additional observations from a re-analysis of the deposited data

How the results depend on the processing

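Of 180 fold changes of the 10 iron genes under alternatives, 165 kept direction and side of the threshold, 13 kept direction but lost the call and 2 changed sign. Scaling by library totals left 4 of the 10 higher and 1 lower, gave 25 higher and 14 lower on the wider list and 8508 higher and 1375 lower over all tested genes, and changed the sign of 4 called genes among those named, Ftl1 (0.012), Ireb2 (0.00485), Fbxl5 (0.16) and Hmox2 (0.19), and of Hmox1 (0.15), which was not called. It moved the median of all tested genes to 0.48, and upper-quartile factors moved it to 0.14. The test against 1.5-fold called 2 higher and 1 lower of the 10, 7 and 10 of the wider list, and 1396 and 1114 of all tested genes. An adjusted p under 0.01 lost Ftl1. Leaving out 1 library left 5 to 6 of the 10 lower and 4 higher, and a ferritin ratio difference of -0.25 to -0.07. Ncoa4 passed the test with library totals (0.51, edgeR adjusted p = 9.8e-04).

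With the replicate number as a block the calls among the 10 were 4 higher and 6 lower, and over all tested genes 4087 and 3796. Libraries of the same number correlated in their deviations from the group means at 0.133, 0.142 and 0.0997, and each cisplatin library correlated best with its own number, a hint from the data and not from the labels. A count of 0 allows a level of up to 0.101 to 0.146 CPM, depending on the library.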
